A study of Mus musculus with 5 samples.

Results

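The genes described here serve antigen presentation by major histocompatibility complex (MHC) class II molecules, and they were followed across 5 arrays of reperfused mouse heart. The list was set by gene symbol and holds 10 genes: the class II chain genes H2-Aa, H2-Ab1 and H2-Eb1, the peptide editor genes H2-DMa and H2-DMb1, the invariant chain gene Cd74, the regulator gene Ciita, the protease gene Ctss, the costimulatory gene Cd86 and the Fc receptor gene Fcgr1. Of these, 9 had a probe annotated with their symbol alone, among 22180 symbols with such a probe. Cd74 was not analysed here, because its probe also carries a second symbol. Past a filter on low levels (a mean log2 value of at least 3.42, the 40th percentile of all probes) there were 8 of the 10 genes among 15294 genes tested. H2-DMb1 lay below it and is given by its values only.

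Both groups were hearts of wild-type C57Bl6J mice at zeitgeber time 12, which is 12 h after the lights come on. Each heart was perfused on a Langendorff apparatus, which supplies an isolated heart with buffer through the aorta, for 20 min of stabilisation, 20 min without flow and 20 min of reperfusion, so that both groups went through ischemia. The antagonist group (n = 3 hearts) came from mice that received a REV-ERB alpha antagonist, given by the labels as 10 µM, into the peritoneum 4 h and 1 h before the perfusion, and the sham group (n = 2 hearts) did not receive it. The labels give no compound name, no vehicle and no age, and hearts without ischemia were not analysed here. Values are log2 expression from robust multi-array average (RMA) processing, and a difference is the antagonist mean minus the sham mean on that scale. The comparison asks how transcripts of the reperfused heart differ when this clock repressor is blocked beforehand.

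MHC class II molecules are dimers of an alpha and a beta chain that show peptides from engulfed proteins to CD4 T cells. In mice the I-A molecule is made from H2-Aa and H2-Ab1, and H2-Eb1 encodes the beta chain of I-E, whose alpha chain gene is defective in C57BL/6 mice. New dimers carry the invariant chain, which cathepsin S trims in the endosome, and the H2-DM dimer then exchanges the remaining fragment for peptide. Transcription of the chain genes depends on the coactivator CIITA, which is held at their promoters by factors that bind neighbouring elements called the X box and the Y box. In the heart the pathway is best known in macrophages, dendritic cells and B cells.

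The promoters of H2-Aa, H2-Eb1 and H2-DMb1 are shown because the first 2 genes shared an array pattern below and H2-DMb1 is the class II gene that lay below the level filter. The sequences are from RefSeq on GRCm38.p6 and cover the 150 bases before the annotated start, 5′ to 3′ on the gene's strand. They lie at chr17:34287824-34287973 (minus strand), chr17:34305717-34305866 (plus strand) and chr17:34153041-34153190 (plus strand). Capitals mark the Y box core TGATTGG and the X1 box core GCAAC.
H2-Aa: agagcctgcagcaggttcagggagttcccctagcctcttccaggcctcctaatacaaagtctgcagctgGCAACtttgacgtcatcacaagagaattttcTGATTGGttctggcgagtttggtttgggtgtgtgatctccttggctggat
H2-Eb1: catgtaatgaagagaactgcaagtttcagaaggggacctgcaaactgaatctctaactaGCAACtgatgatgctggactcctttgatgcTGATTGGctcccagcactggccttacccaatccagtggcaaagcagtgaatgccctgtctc
H2-DMb1: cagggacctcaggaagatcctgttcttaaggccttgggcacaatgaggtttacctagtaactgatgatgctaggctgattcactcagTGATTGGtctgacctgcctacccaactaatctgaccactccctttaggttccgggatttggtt

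Both cores were searched on both strands in windows of 300 bases, from 250 before to 50 after the start, and their matches do not overlap each other in these 3 promoters. The Y box core began 50 bases before the start in H2-Aa, 61 in H2-Eb1 and 63 in H2-DMb1. The X1 box core began at 81 in H2-Aa and 91 in H2-Eb1, and H2-DMb1 had no exact match. Of 32851 RefSeq promoter windows, 7.82% held the Y box core, 35.2% the X1 core and 2.97% both. Among the 6 listed genes with a promoter in the table, the Y box core was found in these 3, and the X1 core in H2-Aa, H2-Eb1, H2-DMa and Fcgr1. The promoter of Ctss held neither, and those of H2-Ab1, Cd74, Ciita and Cd86 were not searched here. These are matches of letters and were not tested for binding.

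Antagonist replicate 2 stood apart by high atrial, adipocyte and mesothelial markers, whose levels follow the pathway results, so the chain, Ctss and Fcgr1 differences are also given without it. No listed gene passed the test between the groups. The chain genes H2-Aa, H2-Ab1 and H2-Eb1 had higher means in the antagonist hearts by 1.43-fold, 1.31-fold and 1.28-fold, Fcgr1 by 1.26-fold and Ctss by 1.20-fold. H2-DMa, Ciita and Cd86 differed by -0.02, 0.10 and -0.12 on the log2 scale. In whole hearts, more cells that carry class II and more RNA per cell cannot be told apart. With limma 0 of 15294 genes (0%) reached an adjusted p under 0.05, and 0 of the 8 listed genes did. The smallest adjusted p was 0.60 over all genes and 0.64 among the 8. Before adjustment 704 genes, or 4.60% of those tested, had a limma p under 0.05, and of the 8 these were Fcgr1 and Ctss.

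H2-Aa, the alpha chain of I-A, measured 6.54 and 7.12 in the sham hearts and 7.13, 7.66 and 7.24 in the antagonist hearts. The lowest value was that of sham replicate 1 and the highest that of antagonist replicate 2, and the groups were separated only by the small step from 7.12 to 7.13. The means were 6.83 ± 0.42 (SD, n = 2) and 7.34 ± 0.28 (SD, n = 3), a difference of 0.51 ± 0.27 (SE). The limma unadjusted p was 0.14 and the adjusted p 0.64. The sham hearts differed from each other by 0.59, more than the group means did.

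H2-Ab1, the beta chain of I-A, had the same order at its ends. It measured 8.13 and 8.64 in sham and 8.56, 9.10 and 8.68 with the antagonist. Antagonist replicate 1 lay below sham replicate 2, so the groups overlapped. The difference was 0.39 ± 0.26 (SE; limma unadjusted p = 0.20, adjusted p = 0.64), and the sham hearts were 0.51 apart.

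H2-Eb1, the beta chain of I-E, measured 6.79 and 6.94 in sham and 7.06, 7.44 and 7.17 with the antagonist. Here every antagonist heart lay above both sham hearts, and the sham hearts were only 0.15 apart. The means were 6.86 ± 0.10 (SD, n = 2) and 7.22 ± 0.19 (SD, n = 3), which differ by 0.36 ± 0.14 (SE; limma unadjusted p = 0.068, adjusted p = 0.64). An exact permutation test (two-sided) cannot give a p under 0.10 here, since 5 arrays allow 10 divisions into 3 and 2. Its p was 0.20 for H2-Eb1, 0.20 for H2-Aa and 0.40 for H2-Ab1.

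**Figure D1:**
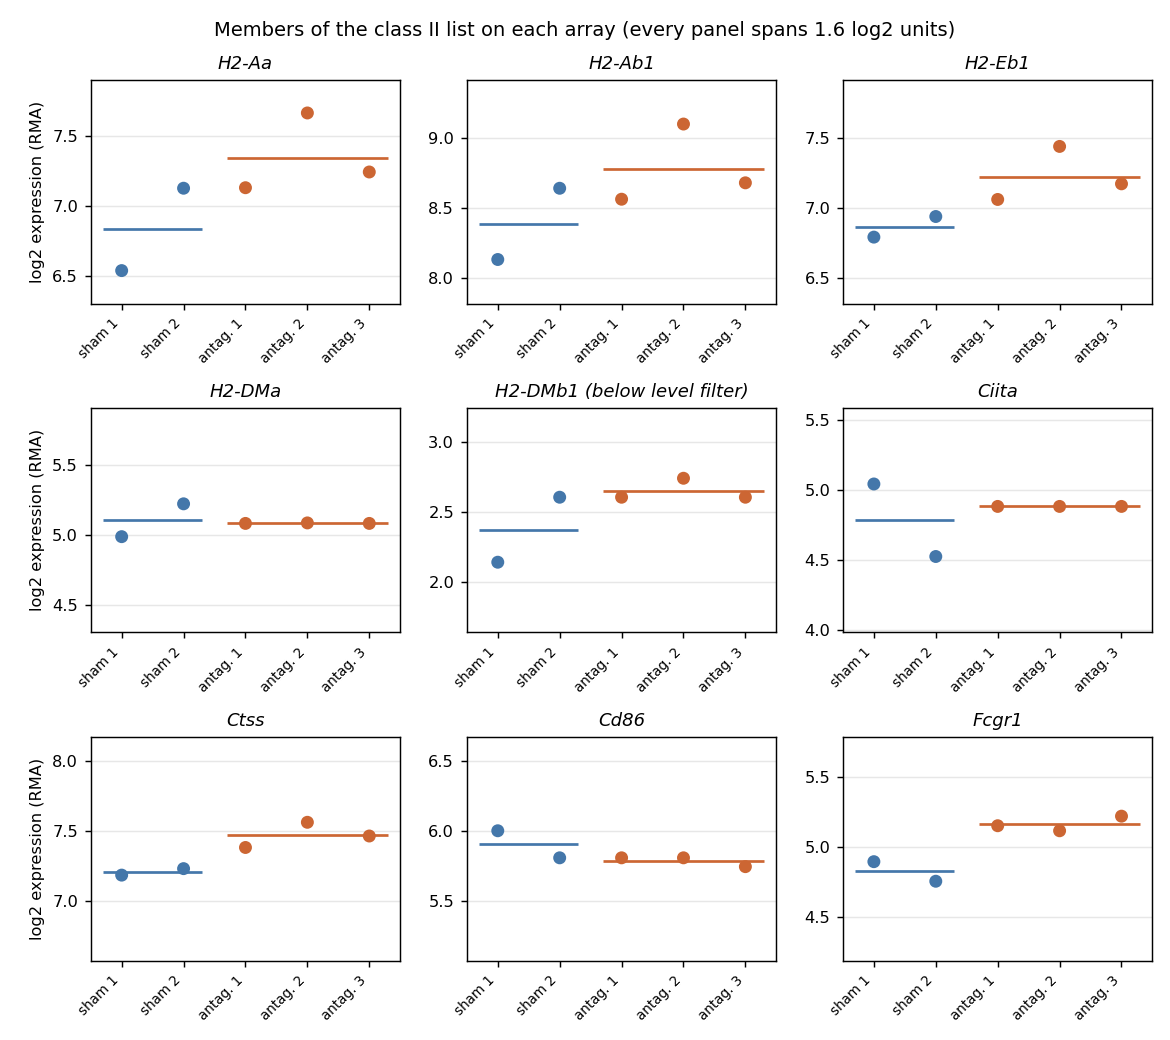
Log2 RMA expression of the 9 measured genes on each array (points; blue, sham, n = 2; orange, antagonist, n = 3), with group means as lines and the same axis length in every panel. The chain genes are lowest on sham replicate 1 and highest on antagonist replicate 2, while Ctss and Fcgr1 have less spread within the groups than between them.

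The peptide editor genes did not follow a common direction. H2-DMa, the alpha chain of H2-DM, measured 4.99 and 5.22 in sham and 5.08, 5.09 and 5.08 with the antagonist. All antagonist hearts lay between the sham hearts, and the difference was -0.02 ± 0.08 (SE; limma adjusted p = 0.95). H2-DMb1, a beta chain of H2-DM, measured 2.14 and 2.60 in sham and 2.60, 2.74 and 2.60 with the antagonist, all below the level filter. Sham replicate 1 was again the lowest and antagonist replicate 2 the highest, and sham replicate 2 had exactly the value of antagonist replicates 1 and 3. The difference was 0.28, or 0.05 without sham replicate 1.

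Ciita, the coactivator gene of the class II promoters, did not share the pattern of the chain genes. It measured 5.04 and 4.53 in sham and 4.88 on every antagonist array. The sham hearts lay on either side of the antagonist hearts, 0.52 apart and in the opposite order to that of H2-Aa. The difference was 0.10 ± 0.17 (SE; limma adjusted p = 0.82). Equal values are frequent in this table: 17.0% of the tested genes had the same value on all antagonist arrays and 73.9% had fewer than 5 different values, as had H2-DMa, Ciita and Cd86 here.

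Ctss, the cathepsin S gene, measured 7.19 and 7.23 in sham and 7.38, 7.56 and 7.47 with the antagonist. The sham hearts were close together and every antagonist heart lay above them. The means were 7.21 ± 0.03 (SD, n = 2) and 7.47 ± 0.09 (SD, n = 3), and the difference was 0.26 ± 0.06 (SE; limma unadjusted p = 0.017, adjusted p = 0.64; exact permutation p = 0.10, the smallest possible).

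Fcgr1 encodes the high-affinity receptor for IgG, through which phagocytes take up antigen bound to antibody. It measured 4.90 and 4.76 in sham and 5.15, 5.12 and 5.22 with the antagonist. The groups did not overlap, and unlike the chain genes it was highest on antagonist replicate 3 and lowest on sham replicate 2. The means were 4.83 ± 0.10 (SD, n = 2) and 5.16 ± 0.05 (SD, n = 3), with a difference of 0.34 ± 0.06 (SE; limma unadjusted p = 0.0062, adjusted p = 0.64; exact permutation p = 0.10).

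Cd86, which encodes a ligand of CD28 on T cells, measured 5.998 and 5.805 in sham and 5.81, 5.81 and 5.74 with the antagonist. Sham replicate 1 was the highest, and sham replicate 2 had the same value as antagonist replicates 1 and 2. The difference was -0.12 ± 0.07 (SE; limma unadjusted p = 0.17, adjusted p = 0.64).

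Every antagonist array lay above both sham arrays for 4 of the 8 tested genes, H2-Aa, H2-Eb1, Ctss and Fcgr1, compared with 6.19% of all tested genes. Below both sham arrays lay 0 of the 8, compared with 6.33%. The list was chosen with results of these arrays known, so this count is a description. Of the 9 measured genes 7 had a higher antagonist mean, with a median difference of 0.28, or 0.30 over the 8 tested genes, beside 0 over all tested genes, of which 47.7% were higher. For 5 of the 8 the sham hearts differed by more than the group means did, which held for 58.4% of all tested genes. The exceptions were H2-Eb1, Ctss and Fcgr1.

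Leaving out each array in turn kept the sign of the difference for H2-Aa, H2-Ab1, H2-Eb1, H2-DMb1, Ctss, Cd86 and Fcgr1. H2-Aa ranged from 0.22 without sham replicate 1 to 0.81 without sham replicate 2, and was 0.35 without antagonist replicate 2. H2-Ab1 ranged from 0.14 to 0.65 with the same sham arrays left out, and was 0.23 without antagonist replicate 2. H2-Eb1 was steadier, from 0.25 without antagonist replicate 2 to 0.44 without antagonist replicate 1. Ctss stayed between 0.22 and 0.31, Fcgr1 between 0.27 and 0.41 and Cd86 between -0.21 and -0.02.

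H2-DMa and Ciita took opposite signs depending on which sham heart remained. H2-DMa was at -0.14 without sham replicate 1 (limma adjusted p = 0.0061) and at 0.10 without sham replicate 2 (adjusted p = 0.0076). Ciita was at 0.36 without sham replicate 1 (limma adjusted p = 0.0033) and at -0.16 without sham replicate 2 (adjusted p = 0.0028). These 4 values are past the threshold, but they set 1 sham array, assumed to vary like the antagonist arrays, against antagonist values that are equal or nearly so. In the same fits 8.62% and 13.5% of all tested genes passed.

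**Figure D2:**
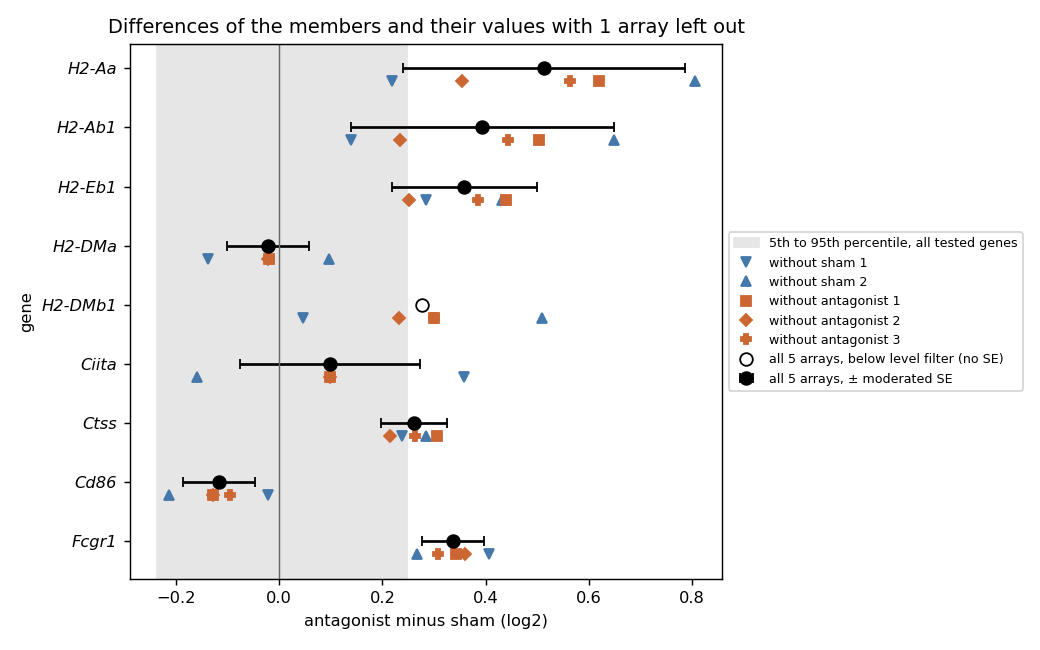
Antagonist minus sham difference (log2) of the 9 genes over all arrays (black, with limma's moderated SE; open circle, H2-DMb1, not tested) and with each array left out (coloured symbols); the grey band holds the 5th to 95th percentile of all tested genes, -0.24 to 0.25. The symbols for the left-out sham arrays lie farthest apart for H2-Aa, H2-Ab1, H2-DMb1 and Ciita, and on opposite sides of 0 for H2-DMa and Ciita.

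The chain genes had the same lowest and highest array. Sham replicate 1 alone was lowest for 6 of the 9 genes, the 3 chain genes, both H2-DM genes and Ctss, and antagonist replicate 2 alone was highest for 5 of them, all but H2-DMa. Over all tested genes sham replicate 1 alone was lowest for 25.9%, antagonist replicate 2 alone was highest for 14.8%, and both held for 5.06%. After subtracting each gene's own mean, the mean of the 3 chain genes was -0.46 and -0.05 in sham and -0.03, 0.45 and 0.08 with the antagonist. Sham replicate 2 thus lay with antagonist replicates 1 and 3, and the ends of the profile were 1 array of each group.

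Genes most like this profile were sought among 3745 tested genes with 5 different values, by the root mean square distance of their centred values over the 5 arrays. The nearest were Tnfaip2 (0.048), a gene induced by tumour necrosis factor, Spock2 (0.072), which encodes a matrix proteoglycan, Uap1 (0.073), an enzyme gene of UDP-N-acetylglucosamine synthesis, a probe annotated to Mir5123 (0.083) and Slain1 (0.093), a microtubule regulator gene. The median distance was 0.31, and the chain genes themselves lay at 0.038 to 0.098 from their mean. Tnfaip2 measured 6.53 and 6.92 in sham and 7.02, 7.41 and 6.98 with the antagonist, with an adjusted p of 0.64 in limma. With 5 arrays such likeness is a description of these hearts.

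**Figure D3:**
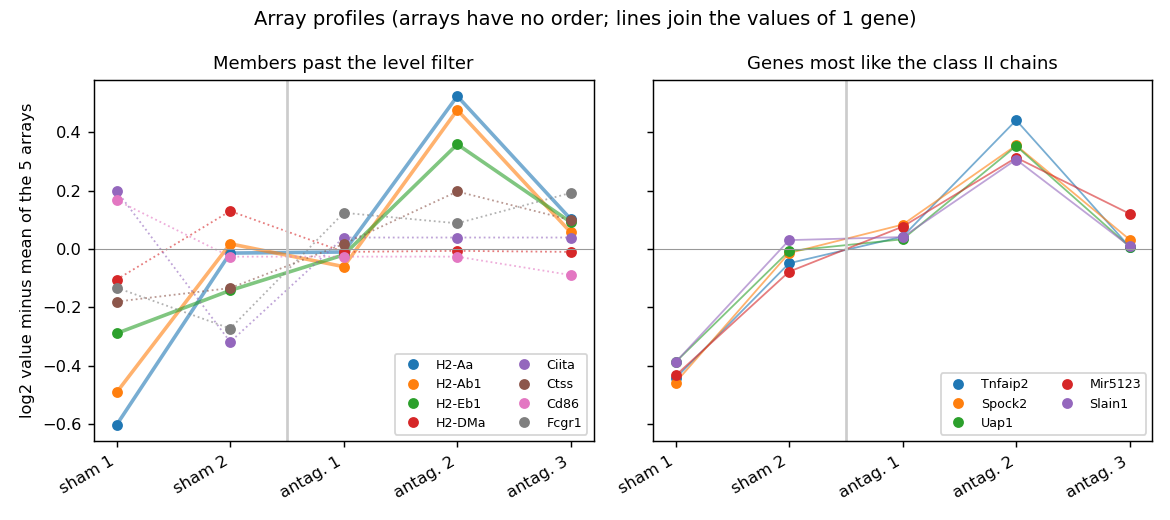
Log2 values minus the gene's mean over the 5 arrays for the 8 tested genes of the list (left; thick lines, chain genes) and the 5 genes nearest to the chain profile (right). The chain genes and their neighbours are lowest on sham replicate 1 and highest on antagonist replicate 2, while Ciita and Cd86 are highest on sham replicate 1.

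The other genes of antigen presentation were taken from 8 lists, of which 76 genes outside the 10 were tested. With limma 0 of the 76 passed. With an unadjusted p under 0.05 were 0 higher and 1 lower, compared with 2.23% and 2.37% of all tested genes, and 48 had a higher and 26 a lower antagonist mean, with a median difference of 0.03. The antagonist arrays lay wholly above sham for 4 of the 76 and wholly below for 1, where all tested genes gave 6.19% and 6.33%.

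Among class II chains, chaperones and peptide editors, H2-DMb2, H2-Eb2 and H2-Ea lay below the level filter with H2-DMb1. H2-Ob, the beta chain of the H2-DO dimer that restrains H2-DM, had the same value, 3.49, on every array. The regulators of the chain promoters differed little: the list of 10 with Ciita and the subunits of the RFX and NF-Y factors had 7 genes higher, 3 lower and a median of 0.02. Those of smallest p were Rfxap, an RFX subunit (0.13, or 0.02 without sham replicate 1), and Zxdc, a zinc finger partner of CIITA (0.11, or 0.05 without sham replicate 1).

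Among endolysosomal genes, most of them proteases that cut antigen or invariant chain, 7 of 10 were higher and 3 lower, with a median of 0.16. Beside Ctss, Ctsl, which encodes cathepsin L, measured 8.14 and 8.75 in sham and 8.91, 8.86 and 8.82 with the antagonist. It was lowest on sham replicate 1 but not highest on antagonist replicate 2. Its difference of 0.42 ± 0.21 (SE; limma adjusted p = 0.64) was 0.11 without sham replicate 1. Sham replicate 1 alone was lowest for 7 of these 10 genes.

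Genes of class II turnover and of the tetraspanin surface had a median of 0.06 over 8 tested, with Cd53, a tetraspanin of leukocytes, at 0.18 (0.06 without sham replicate 2) and Marchf1, the ubiquitin ligase that removes class II and CD86 from the surface, at 0.21 (0.05 without sham replicate 2). The costimulation list, which also holds inhibitory genes, had 4 higher, 7 lower and a median of -0.06 over 11. Among the lower were the inhibitory genes Ctla4 (-0.10), Cd274 (-0.30) and Pdcd1lg2 (-0.01) and the T cell receptor gene of CD86, Cd28 (-0.08). These are named after their values were seen, and the count is not one of costimulatory genes alone. Cd276, a B7 family ligand also made outside the immune system, measured 5.43 and 5.49 in sham and 5.03, 4.95 and 5.30 with the antagonist. The groups did not overlap, and its difference of -0.37 ± 0.12 (SE) had a limma unadjusted p of 0.047 and an adjusted p of 0.64.

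The list of Fc gamma receptors and related genes had 4 of 6 higher and a median of 0.11. The 2 lower were Fcgrt (-0.16), the neonatal Fc receptor gene, and Fcer1g (-0.15), a signalling adaptor gene. Neither is an Fc gamma receptor gene, and both are named after their values were seen. Without sham replicate 1 they were at 0.12 and 0.18. Fcgr4 was at 0.18, or 0.01 without sham replicate 2, where Fcgr1 was at 0.27. Of 18 class I antigen presentation genes 11 were higher and 7 lower, with a median of 0.03. The chaperone gene Calr, with antagonist arrays above sham, differed by 0.18 ± 0.10 (SE), or 0.10 without antagonist replicate 2, and Psme1, a proteasome activator gene, by -0.28 ± 0.16 (-0.11 without sham replicate 2). Of 15 genes of interferon gamma signalling, a known inducer of Ciita, 11 were higher and 3 lower, with a median of 0.07. The GTPase gene Igtp differed by 0.26 ± 0.10 and Iigp1 by 0.14 ± 0.08 (0.07 without antagonist replicate 2), each with a limma adjusted p of 0.64.

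**Figure D4:**
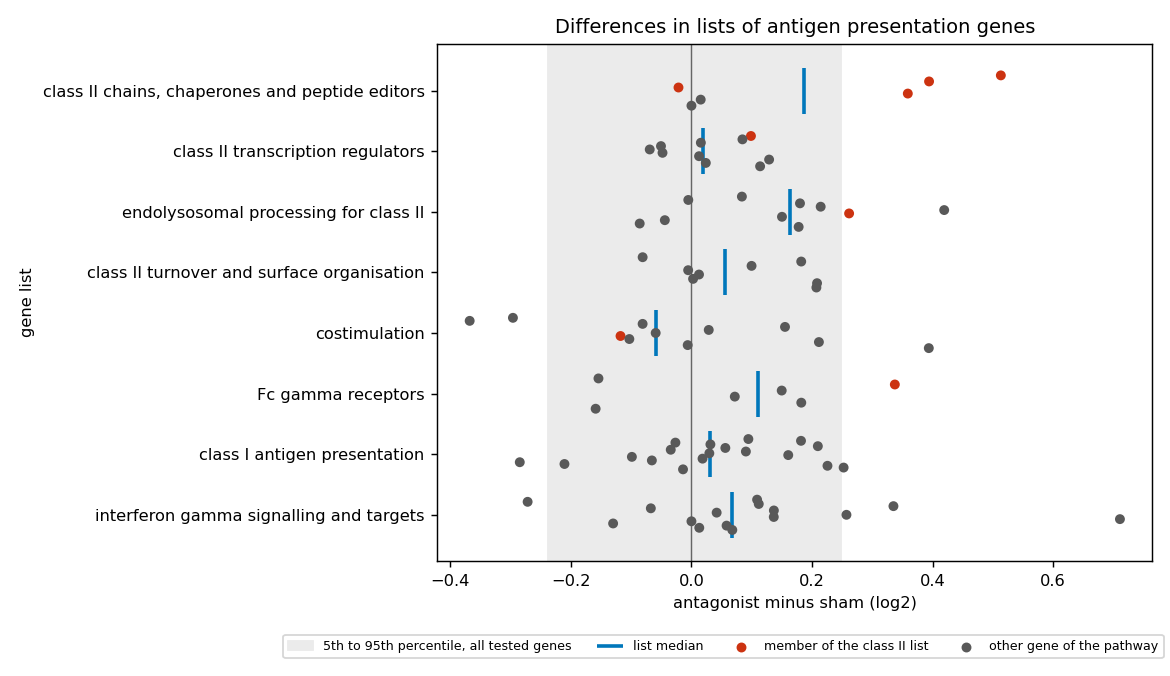
Antagonist minus sham difference (log2) of the tested genes of 8 lists (red, genes of the class II list described here; grey, other genes of the pathway; blue bar, list median), with the 5th to 95th percentile of all tested genes as a grey band. The 3 chain genes lie to the right of the band, as do genes of other lists, among them Irf1, Ctsl and Fcgr1. Cd276 and Psme1 are among those to its left. The medians of the regulators (0.02) and of the class I genes (0.03) lie near 0.

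Markers of the cells that carry class II were set beside these values. Summed linear levels of 21 macrophage and monocyte markers were 2749 to 2844 in sham and 2812 to 3185 with the antagonist, so the groups overlapped. Their values centred per gene had medians of -0.06 and -0.01 in sham and 0.02, 0.05 and -0.03 with the antagonist. The mean of the chain genes ranged from -0.46 to 0.45, but the measures are unlike. A median over 21 markers that move in both directions stays near 0 even where single markers move. Of 20 macrophage markers tested 11 were higher and 9 lower. Arrays of the antagonist lay wholly above sham for Itgam (0.31 ± 0.06, SE), Cd14 (0.67 ± 0.17), Lyve1 (0.51 ± 0.17), C1qa (0.38 ± 0.18) and Ly6c2 (0.34 ± 0.18), and wholly below for Cd68 (-0.26) and Folr2 (-0.24). These are 5 and 2 of the 20, beside 6.19% and 6.33% of all tested genes, and 0 of the 20 passed with limma. Before adjustment 3 of the 20 (Itgam, Cd14 and Lyve1) were higher and 0 lower at a limma p under 0.05. Of all tested genes 2.23% and 2.37% were. With each array left out in turn, Itgam stayed between 0.27 and 0.35 and Cd14 between 0.54 and 0.79. C1qa was at 0.14 without sham replicate 1 and Lyve1 at 0.27 without sham replicate 2. Without antagonist replicate 3, Ly6c2 was at 0.19, Cd68 at -0.14 and Folr2 at -0.13. Itgam, Cd14, C1qa, Ly6c2, Cd68 and Folr2 are named after their values were seen. Lyz2, with Lyve1 the brightest of the list, differed by 0.09.

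The other immune lists were largely at the bottom of the scale. Of the measured markers, 4 of 11 for dendritic cells, 6 of 9 for B cells, 6 of 10 for T and NK cells and 6 of 9 for neutrophils lay below the level filter. Among those below it were the defining genes Flt3 and Itgax of dendritic cells, Ms4a1 and Cd79a of B cells, Cd3e of T cells, and S100a8 and S100a9 of neutrophils. Summed dendritic cell markers were 243 to 251 in sham and 248 to 268 with the antagonist. Of the brightest, Zbtb46 measured 5.24 and 5.37 in sham and 5.37, 5.77 and 5.37 with the antagonist. It shared the lowest and highest array with the chain genes and was equal on the others. Cd209a, the brighter marker, differed by -0.04 and was lowest on antagonist replicate 2 (6.23). Summed B cell markers were 156 to 160 in sham and 148 to 211 with the antagonist. Ighm, highest on antagonist replicate 2 (7.05, against 6.09 to 6.58 on the other arrays), and Pax5, at 4.24 on every array, were the brightest. Cd4 (-0.01) and Cd5 (-0.04) of T cells, and Csf3r (0.06) and Cxcr2 (0) of neutrophils, differed by little.

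Antagonist replicate 2, the array with the highest chain genes, also carried the highest summed atrial (12105, against 3487 to 4451 on the other arrays), adipocyte (1461, against 130 to 227) and mesothelial markers (265, against 134 to 145). Without this array the differences were 0.35 for H2-Aa, 0.23 for H2-Ab1, 0.25 for H2-Eb1, 0.22 for Ctss and 0.36 for Fcgr1, and the same 4 genes of the 8 lay wholly above sham, as 8.76% of all tested genes then did. The part of these tissues, and of macrophages, in the group differences was not tested. Cardiomyocyte markers, which fit the labelled tissue, had summed levels of 42897 to 44721 in sham and 43681 to 44613 with the antagonist. Summed endothelial markers were 4997 to 5038 in sham and 4681 to 4847 with the antagonist, without overlap, although 6 of the 11 were higher and 5 lower (median 0.04). The bright cadherin gene Cdh5 lay wholly below sham (-0.23 ± 0.05, SE; limma unadjusted p = 0.011, adjusted p = 0.64). It is 1 of the 11, beside 6.33% of all tested genes. Of 9 fibroblast markers 7 were lower and 1 higher (median -0.12), and their sums overlapped (4339 to 4515 in sham, 3865 to 4682 with the antagonist). Lum (-0.39 ± 0.15, SE) and Tcf21 (-0.12 ± 0.04) lay wholly below sham, each with a limma adjusted p of 0.64. They are 2 of the 9, beside 6.33% of all tested genes. Without sham replicate 2 they were at -0.24 and -0.06. Cdh5, Lum and Tcf21 are named after their values were seen, and the part of these cells in the results was not tested either.

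**Figure D5:**
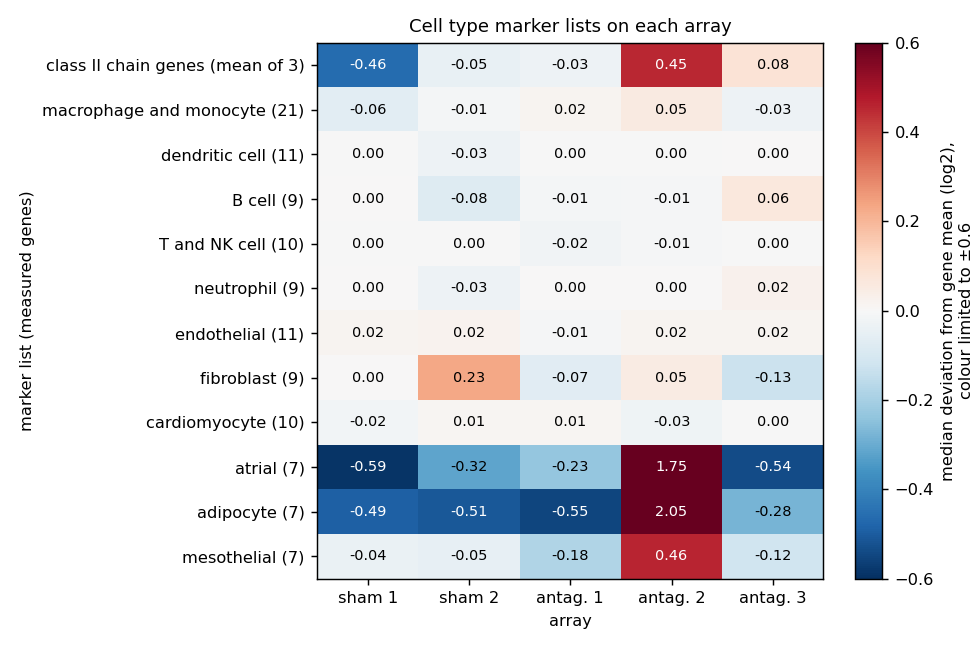
Deviation from the gene's mean over the 5 arrays (log2) for the mean of the 3 chain genes (top line) and the median of each cell type marker list (number of measured genes in brackets), per array. The immune lists stay within -0.08 to 0.06, while the atrial, adipocyte and mesothelial lists stand out on antagonist replicate 2 (1.75, 2.05 and 0.46). The top line is a mean and the others are medians, so their sizes are not directly comparable.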

How the data were processed

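Total RNA of 5 hearts, 1 array each (sham, n = 2; antagonist, n = 3; groups from the labels), was labelled from 300 ng per the labels' protocols. The deposited log2 values were made by the authors with RMA, per the submitters' processing notes; RMA's version, probe library and build are not stated in the labels or the table. The table held 41345 probes. The platform annotation gave a lone symbol to 23521 and several to 1814, and it did not list 16010; the brightest probe per symbol was kept. All 9 measured genes have 1 such probe and were found by Entrez Gene identifier in RefSeq (GRCm38.p6), with 0 symbols changed.

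Antagonist and sham arrays were set against each other by lmFit and eBayes of limma 3.58.1 (R 4.3.3), two-sided and without covariates, and p-values were adjusted by Benjamini-Hochberg over 15294 genes (threshold 0.05). The script was tested on simulated data. Array medians were 3.92 to 3.95, and precision is limited by the number of arrays. The labels call the arrays biological replicates without naming animals, so p-values measure the spread between these samples.

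The genes, lists, motifs and naming rule were chosen with earlier results of these data known. Named are the 10 listed genes, the 2 of smallest p in each list, the 5 nearest to the chain profile (the mean of H2-Aa, H2-Ab1 and H2-Eb1; Cd74 had also been planned) and the 2 brightest markers of each immune list; predicted genes are not named. Outside this rule are the genes marked in the text as named after their values were seen, and, chosen in the same way, H2-Ob and the genes given as below the level filter (H2-DMb2, H2-Eb2, H2-Ea and the defining immune markers). Deviations of same-numbered arrays had correlations of -0.11 for number 1 and 0.03 for number 2. The deviations of 2 sham arrays mirror each other, so these values cannot decide whether the numbers pair the arrays. The main test treats the arrays as unpaired. Alternatives covered the level filter, normalization, probe choice, variance model, array weights, replicate block and leaving out each array.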

Additional observations from a re-analysis of the deposited data

How the results depend on the processing

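The processing was varied in 9 other settings. These were no level filter, a filter at the 60th percentile, quantile normalization repeated, median centring and the mean of all probes. Also included were eBayes with trend or robust, array weights, and the replicate number as a block. Under each, 0 genes passed in limma, as among the listed genes, and the 9 differences kept their sign. The filters, the probe mean and the eBayes options cannot change these differences, so there the sign was fixed in advance. The median difference of the 9 genes was 0.28 to 0.30 over the 9 settings. In each it was the value of H2-DMb1, which lay below the level filter and was at 0.05 without sham replicate 1. The narrow range is therefore that of 1 gene at a low level. With the replicate block the median was 0.30, H2-Aa was at 0.56 and the smallest adjusted p in limma was 0.74, and it changed no call. Its differences equal those without antagonist replicate 3, which has no sham array of its number. Leaving out 1 array gave 0 to 2058 genes, with 1319 without sham replicate 1, 2058 without sham replicate 2 and 0 when an antagonist array was left out, and 0 to 2 of the listed genes, H2-DMa and Ciita in both cases. H2-DMa ranged from -0.14 to a reversed 0.10 and Ciita from 0.36 to a reversed -0.16, the reversals both without sham replicate 2. The median difference was 0.22 to 0.31. Over the 3 chain genes alone, a choice made after seeing the data, it was 0.39. Restricting the test to genes with 5 different values, also chosen after seeing the data, gave 0 genes. With 2 sham arrays, none of the tested listed genes passed in limma with all arrays after adjustment over 15294 genes. That threshold does not by itself measure the spread of 1 gene between hearts, and the exact permutation test cannot give a p under 0.10. For 5 of the 8 tested genes, H2-Aa and H2-Ab1 among them, the sham hearts differed by more than the group means did. H2-Eb1, Ctss and Fcgr1 were the exceptions.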

Other observations

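In the list of 15 genes of interferon gamma signalling, Cxcl9 was highest on sham replicate 1 (6.73) and Irf8 was equal on every array (5.08). Antagonist replicate 2 alone was highest for 9 of the 15, beside 14.8% of all tested genes. Of these, 3 are described here. The genes named in this paragraph were chosen after their values were seen. Irf1, a transcription factor gene induced by interferons, measured 8.16 on that array and 6.25 to 6.81 on the other 4. The GTPase gene Gbp5 measured 6.20, against 5.14 to 5.57, and the chemokine gene Cxcl10 6.99, against 5.24 to 6.38. The group differences were 0.71 ± 0.62 (SE) for Irf1, 0.33 ± 0.36 for Gbp5 and 0.11 ± 0.61 for Cxcl10, and none of these 3 passed with limma. Without antagonist replicate 2 they were 0.20, 0.05 and -0.28.

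Spi1, which encodes the myeloid factor PU.1 and was also chosen after its values were seen, had the same shape as Ciita. It measured 5.86 and 5.26 in sham and 5.58 on every antagonist array, as Ciita measured 5.04, 4.53 and 4.88. Equal antagonist values are not particular to these genes, as 17.0% of the tested genes had the same value on all antagonist arrays. The share that also had the sham hearts on either side was not counted. The B cell marker Blk, also chosen after its values were seen, measured 3.82 and 3.28 in sham and 3.72 on every antagonist array.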
